A study of Mus musculus with 12 samples.

Results

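The genes described here encode the subunits of voltage-gated calcium and sodium channels. They were chosen by symbol, as Cacn genes or as numbered Scn genes ending in a or b, and each had to have an array feature that the platform annotation pairs with that gene alone. This gave 35 genes, 24 of calcium channels and 11 of sodium channels, of 19938 genes with such a feature. By role, 18 encode pore-forming alpha subunits and 17 encode auxiliary subunits. Where a gene had several features, the one with the highest mean over all arrays was used. Channel genes without such a feature in the annotation used, such as Cacnb3, Cacng6 and Scn4a, were not analysed here.

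Hippocampal RNA was compared between 2 strains, with 6 Madison (MSN) mice and 6 hsd:ICR (ICR) mice, each animal on its own Affymetrix Mouse Gene 1.0 ST array. All were untreated adult males of about the same age, the tissue was macrodissected hippocampus, and no transgene was involved. MSN is a nearly inbred strain that derives from the outbred ICR stock and shows a manic behavioral phenotype, while ICR mice show the normal one. The labels call it bred for that phenotype, whereas the study's methods describe ancestors selected for wheel running and then for maternal defense. Since MSN is a single line, differences tied to the phenotype and differences fixed by inbreeding or drift cannot be told apart.

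A voltage-gated channel opens its pore when the membrane depolarizes. Sodium (Nav) channels carry the rising phase of the action potential, and calcium (Cav) channels let in the calcium that triggers transmitter release, dendritic signals and gene expression. The alpha subunit forms the pore and senses the voltage. Auxiliary alpha2delta and beta subunits bring calcium channels to the membrane and tune their opening, and sodium channel beta subunits do the same for sodium channels. Most gamma subunits expressed in brain act as TARPs, which carry AMPA-type glutamate receptors to the synapse and shape their currents. In hippocampus, Scn1a, Scn2a and Scn8a are the main sodium channel pores of adult neurons, while Cacna1a and Cacna1b supply most of the calcium for release at synapses.

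The promoters of the 2 genes with the smallest P-values below are printed because they are the regions that control these transcripts, from 250 bases before to 50 bases after the start, as RefSeq gives them for GRCm38.p6. Capitals mark GC boxes, GGGCGG on the gene's strand or CCGCCC for the other strand. The window of Cacng7 is chr7:3332575-3332874 on the plus strand and that of Cacna1b is chr2:24763103-24763402 on the minus strand, each sequence reading 5′ to 3′ along the gene.
Cacng7: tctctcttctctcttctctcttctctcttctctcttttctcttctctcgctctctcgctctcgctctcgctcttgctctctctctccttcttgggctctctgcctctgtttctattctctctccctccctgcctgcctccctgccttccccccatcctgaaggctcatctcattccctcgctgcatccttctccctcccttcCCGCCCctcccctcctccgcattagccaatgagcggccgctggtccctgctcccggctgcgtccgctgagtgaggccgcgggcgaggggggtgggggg
Cacna1b: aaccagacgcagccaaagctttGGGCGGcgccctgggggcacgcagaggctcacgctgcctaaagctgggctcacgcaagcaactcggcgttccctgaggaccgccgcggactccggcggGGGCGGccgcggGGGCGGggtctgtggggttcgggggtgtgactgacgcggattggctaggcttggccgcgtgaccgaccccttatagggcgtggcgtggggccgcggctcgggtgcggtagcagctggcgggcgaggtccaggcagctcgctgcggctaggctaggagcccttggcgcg
The Cacng7 window was 62% G or C with 1 GC box, and that of Cacna1b was 72.3% G or C with 3. Of the 35 genes 27 had a promoter in this table. A GC box on either strand occurred in 12 of these 27 (44.4%), and in 35.9% of all 27025 promoters. The CCAAT box, CCAAT or ATTGG, occurred in 7 of 27 (25.9%), Cacng7 and Cacna1b among them, against 37.9% of all promoters. TATAAA or TTTATA occurred in 1 of 27, that of Cacna1d (3.7%), against 14.2%, and the palindrome TGACGTCA in 0 of 27, against 1.88%. A match describes the letters only.

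The deposited values are linear PLIER intensities, a probe-set summary of brightness, and they were analysed as log2(intensity + 16), a scale that understates the change of dim genes. A log2 difference is MSN minus ICR on that scale. The median intensity of an array ran from 373 to 389, and arrays of a strain correlated at 0.992 to 0.997. Excitatory neuron markers of hippocampus were present in both strains, with Prox1, a granule cell gene, at 1326 ± 64.7 in MSN and 1177 ± 185 in ICR (SD, n = 6 each). In each strain 1 array stood apart in a list of marker genes. On ICR replicate 3 all 9 markers of cerebellum examined were above the 11 other arrays, among them Gabra6 at 4983 against 47.2 to 88.7 and Cbln3 at 4586 against 149.6 to 225. On MSN replicate 5 all 6 activity-induced genes examined were the highest of the 12 arrays, with Npas4 at 1439 against 428 to 648. Both of these lists were chosen after the arrays had been looked at. Many of the differences and counts led by these arrays are also given without them, but SDs are not. The part that the other signal plays in these values was not tested.

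No channel gene passed the test between the strains. At an adjusted p under 0.05 limma called 0 of the 35 genes in either direction. Of all 23410 clusters tested it called 182 (0.777%), with 0.303% higher in MSN mice and 0.474% lower. At an unadjusted p under 0.05 there were 6 of 35 genes (17.1%), while 12.7% of all clusters reached this value. Of these 6, Cacna1b, Scn3b and Cacng4 were higher in MSN mice and Cacng7, Scn2a and Scn1a were lower, while the shares of all clusters were 5.18% higher and 7.50% lower. An unadjusted p under 0.01 was reached by 3 genes, Cacng7, Cacna1b and Scn3b, and by 4.55% of all clusters. The strains did not overlap in 1 gene, Cacng7, and in 1.44% of all clusters. Log2 differences were above 0 for 14 genes and below 0 for 21, and 45.5% of all clusters were above 0. The median difference was -0.014, beside -0.008 for all clusters, and the median size regardless of sign was 0.041, beside 0.047. In 29 of the 35 genes the 95% interval of the difference lay within 0.25 of 0 on both sides, as it did in 19501 of the 23410 clusters. All 35 genes were tested and none was removed for low values. Of these, 25 had a mean above that of the median cluster, 382, and the lowest single value was 90. No detection limit was set, so a difference near 0 in a dim gene does not show that the gene was expressed. In tissue that holds many cell types, fewer cells of a type and less RNA per cell cannot be told apart.

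**Figure D1:**
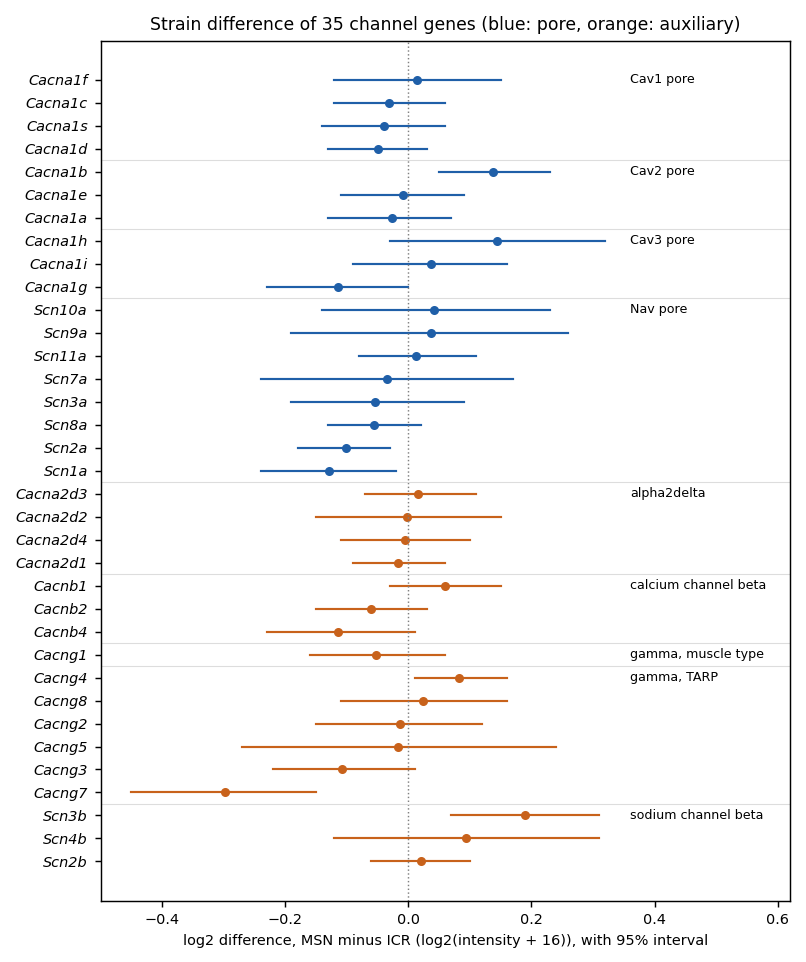
Log2 difference between MSN and ICR mice on the log2(intensity + 16) scale (horizontal axis) for each of the 35 channel genes, with its 95% interval from limma as a bar; blue is pore-forming and orange auxiliary. The differences run from -0.30 for Cacng7 to 0.19 for Scn3b, and 29 of the 35 intervals lie within 0.25 of 0.

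Among the pore-forming subunits of calcium channels, Cacna1b stood first. It encodes the N-type (Cav2.2) channel of presynaptic terminals. Its intensity ran from 1929 through a median of 2088 to 2209.8 in MSN mice, and from 1775 through 1895 to 2016 in ICR mice. Thus 5 of the 6 MSN arrays were above all ICR arrays, and the remaining one lay within the ICR range. The means were 2087 ± 95.6 and 1896 ± 86.6 (SD, n = 6 each), a log2 difference of 0.14 (standard error 0.0412, 95% interval 0.05 to 0.23). The exact permutation test over the 12 arrays gave a two-sided p = 0.00649, and the adjusted p = 0.164 from limma did not pass. Without ICR replicate 3 the difference was 0.13 (adjusted p = 0.209 from limma).

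The other genes of the Cav2 family had values that lay together in the strains. Cacna1a, the P/Q-type pore, averaged 2532 ± 93.8 in MSN and 2582 ± 178 in ICR mice (SD, n = 6 each), a log2 difference of -0.03 with an interval from -0.13 to 0.07. Cacna1e, the R-type pore, had a difference of -0.01 (-0.11 to 0.09). Taking the ratio of Cacna1b to Cacna1a within each array, and setting the ICR mean to 0, the MSN arrays lay between 0.12 and 0.24 on the log2 scale and the ICR arrays between -0.19 and 0.18. The mean of this ratio was 0.16 higher in MSN mice, and 0.12 higher without ICR replicate 3. It is given as a description, without a test.

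The L-type (Cav1) pores, which couple depolarization to gene expression in neurons and to contraction in muscle, had differences from -0.05 to 0.01. Cacna1d had the smallest P-value of the 4, with MSN arrays from 843 through 900.2 to 946 and ICR arrays from 886 through 929 to 969. Below the ICR range lay 2 MSN arrays, and the difference was -0.05 (95% interval -0.13 to 0.03). Cacna1c, whose human ortholog is a widely studied candidate gene in bipolar disorder, ran from 1458 to 1509 in MSN and from 1333 to 1599 in ICR mice. Its difference was -0.03 (-0.12 to 0.06) over all arrays. ICR replicate 3 was the lowest ICR array at 1333, with the others from 1535 to 1599. Without it the difference was -0.07 (-0.13 to -0.00), with an adjusted p = 0.331 from limma. Cacna1s, the skeletal muscle pore, and Cacna1f, the retinal one, had differences of -0.04 and 0.01. Both were dim, with MSN means of 159 and 138.

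Of the T-type (Cav3) pores, which open near the resting potential and support burst firing, Cacna1g and Cacna1h pointed in opposite directions. Cacna1g ran from 990.5 through 1075 to 1159 in MSN and from 1058 through 1161 to 1345 in ICR mice, with means of 1076 ± 56.5 and 1167 ± 101 (SD, n = 6 each). Only 2 MSN arrays lay below the ICR range, and the difference was -0.11 (standard error 0.0552, 95% interval -0.23 to 0.00, adjusted p = 0.413 from limma). The highest ICR value, 1345, was that of ICR replicate 3, and without it the difference was -0.07 (adjusted p = 0.535 from limma). Cacna1h ran from 1101 through 1208 to 1311 in MSN and from 831 through 1133 to 1235 in ICR mice. The means were 1216 ± 74.3 and 1106 ± 143 (SD, n = 6 each), and the difference was 0.14 (standard error 0.0802, 95% interval -0.03 to 0.32, adjusted p = 0.491 from limma). The array at the low end, 831, was ICR replicate 3, and the other ICR arrays lay between 1103 and 1235. Without it the difference was 0.07 (adjusted p = 0.607 from limma). Cacna1i had a difference of 0.04 (-0.09 to 0.16).

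The sodium channel pores were led by Scn2a and Scn1a, both lower on average in MSN mice. Scn2a encodes Nav1.2, found in axons and dendrites of excitatory neurons. Its brightest feature ran from 8977 through 9441 to 9683 in MSN and from 9466 through 10255 to 10483 in ICR mice. Below the whole ICR range lay 4 MSN arrays, and the other 2 lay within it. The means were 9428 ± 255 and 10119 ± 387 (SD, n = 6 each), and the log2 difference was -0.10 (standard error 0.035, 95% interval -0.18 to -0.03). The exact permutation test gave a two-sided p = 0.00866, and the adjusted p = 0.232 from limma did not pass. Without ICR replicate 3 the difference was again -0.10. It depended on the scaling of the arrays. After quantile normalization it was -0.07 (adjusted p = 0.464 from limma), and with the same median also -0.07 (adjusted p = 0.541 from limma).

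Scn2a had 14 single-gene features on the array, and all 14 differences were below 0. They ranged from -0.13 to -0.05 with a median of -0.08. At an unadjusted p under 0.05 there were 6 of them, and limma called 0, with adjusted p from 0.194 to 0.634. Averaged over the 14 features, log2 values ran from 11.64 to 11.77 in MSN mice and from 11.75 to 11.85 in ICR mice, a difference of -0.09, with 5 MSN arrays below all ICR arrays. The features come from the same RNA and the same arrays and are not independent of each other. A shift of whole arrays would move all of them, and they are not given under the other scalings. Features that the annotation shares between sodium channel genes of chromosome 2 were also below 0. That of Scn2a, Scn9a and Scn3a had a difference of -0.14 (adjusted p = 0.264 from limma), that of Scn9a and Scn3a -0.09 (adjusted p = 0.32 from limma), and that of Scn3a and Scn1a -0.04 (adjusted p = 0.73 from limma). These belong to no single gene and were not counted among the 35.

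**Figure D2:**
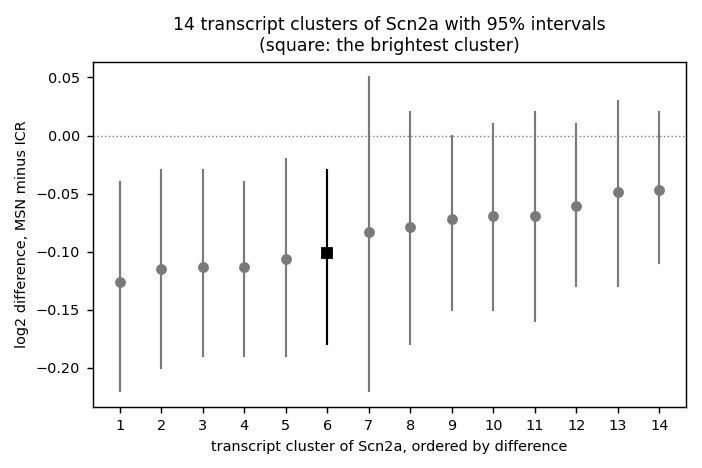
Log2 difference, MSN minus ICR, of each of the 14 single-gene features (transcript clusters) of Scn2a, ordered by size, with 95% intervals from limma; the square is the feature with the highest mean. All 14 points lie below 0, between -0.13 and -0.05.

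Scn1a encodes Nav1.1, which drives firing of parvalbumin interneurons. It ran from 1347 through 1374 to 1488 in MSN and from 1429.6 through 1494 to 1789 in ICR mice, so that 4 MSN arrays lay below the ICR range. The means were 1396 ± 54.2 and 1532 ± 133 (SD, n = 6 each), and the difference was -0.13 (standard error 0.0518, 95% interval -0.24 to -0.02). The exact permutation test gave a two-sided p = 0.0173, and the adjusted p = 0.309 from limma did not pass. The value of 1789 came from ICR replicate 3, and the other ICR arrays reached 1542. Without that array the difference was -0.08 (95% interval -0.17 to -0.00, adjusted p = 0.345 from limma). Over all arrays it was -0.13 after quantile normalization (adjusted p = 0.312 from limma). With the same median it was -0.10 (adjusted p = 0.475 from limma). The ratio of Scn1a to Scn2a within an array was 0.03 lower in MSN mice on the log2 scale, and its MSN values, from -0.07 to 0.02, lay inside the ICR values of -0.13 to 0.22. Without ICR replicate 3 the direction turned, with the ratio 0.02 higher in MSN mice.

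Scn8a, the Nav1.6 pore of the axon initial segment, ran from 3061 through 3217 to 3414 in MSN and from 3217 through 3354 to 3489.7 in ICR mice. Below all ICR arrays lay 3 MSN arrays, and the difference was -0.05 (standard error 0.0353, 95% interval -0.13 to 0.02, adjusted p = 0.563 from limma). Scn3a, the Nav1.3 pore prominent before birth, ran from 401 to 447 in MSN and from 353 to 481 in ICR mice, where 353 was ICR replicate 3 and the next lowest was 437. Its difference was -0.05 over all arrays and -0.12 without ICR replicate 3 (95% interval -0.20 to -0.03, adjusted p = 0.204 from limma). The remaining pores are best known from peripheral neurons and glia, and their strain ranges overlapped broadly. Scn10a had a difference of 0.04, Scn11a 0.01 and Scn7a -0.03. These 3 were dim, with MSN means of 111, 167 and 229.6. Scn9a, the Nav1.7 pore of pain-sensing neurons, had features with differences of 0.04 and -0.03.

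Among the auxiliary subunits, Cacng7 gave the largest difference of the 35 genes and the smallest P-value. It encodes the gamma-7 subunit, one of the type II TARPs. The MSN arrays ran from 3103 through 3132 to 3244 and the ICR arrays from 3354 through 3785 to 4622, so that no MSN value reached the lowest ICR value. The means were 3152 ± 52.8 and 3906 ± 516 (SD, n = 6 each), and the log2 difference was -0.30 (standard error 0.07, 95% interval -0.45 to -0.15), which is -18.6% on the linear scale. The exact permutation test gave a two-sided p = 0.00216, which is the smallest that 6 against 6 arrays allow. Every gene without overlap gets this value, so it repeats the lack of overlap and adds nothing to it. The adjusted p = 0.0671 from limma did not pass. It passed in 4 of 24 other settings and left-out arrays, over which it ranged from 0.039 to 0.143. These were a pseudocount of 64, a fit to clusters above the median mean, and the fits without ICR replicate 2 (adjusted p = 0.0473 from limma) or ICR replicate 4 (adjusted p = 0.0419 from limma). ICR replicate 3 had the second highest value, 4413, and without it the difference was -0.26 (adjusted p = 0.0988 from limma).

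The MSN values of Cacng7 were also close together. The SD of its log2 values was 0.0239 in MSN and 0.187 in ICR mice. A larger SD in ICR mice was found in 20 of the 35 genes and in 50.0% of all clusters. Among the 20 was Cacna1c on chromosome 6, with 0.0213 in MSN and 0.0919 in ICR mice. Cacng8, a type I TARP gene next to Cacng7 on chromosome 7, also varied less in MSN mice, with SDs of 0.0727 and 0.15, but its ranges overlapped. It ran from 3048 to 3530.4 in MSN and from 2756 to 3722 in ICR mice, and its difference was 0.02 (95% interval -0.11 to 0.16). The value of 2756 was that of ICR replicate 3, and the other ICR arrays lay between 3124 and 3722. Without that array the difference of Cacng8 was -0.03, and the SDs were not computed without it. The ratio of Cacng7 to Cacng8 within an array was 0.32 lower in MSN mice on average. It lay between -0.41 and -0.15 on MSN arrays and between -0.33 and 0.44 on ICR arrays, relative to the ICR mean. Without ICR replicate 3 it was 0.23 lower.

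Cacng4, another type I TARP gene, was slightly higher in MSN mice. It ran from 815 through 862 to 911 in MSN and from 786 through 811 to 844 in ICR mice, with 4 MSN arrays above the ICR range. The means were 861 ± 35.6 and 812 ± 23 (SD, n = 6 each), and the difference was 0.08 (standard error 0.0356, 95% interval 0.01 to 0.16). The exact permutation test gave a two-sided p = 0.0216, and the adjusted p = 0.344 from limma did not pass. Cacng3, also of type I, ran from 3567 through 4002 to 4231 in MSN and from 3835 through 4333 to 4692 in ICR mice. Its ranges overlapped except for 1 MSN array, and the difference was -0.11 (standard error 0.0546, 95% interval -0.22 to 0.01, adjusted p = 0.439 from limma). Cacng2, which encodes stargazin, had a difference of -0.01 in both of its features. Cacng5 varied most among MSN mice, from 499.5 to 907, with the lowest value on MSN replicate 5. Its difference was -0.02 (-0.27 to 0.24), and 0.09 without that array (adjusted p = 0.716 from limma).

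Cacng1 encodes the gamma subunit of skeletal muscle. Its difference was -0.05 (95% interval -0.16 to 0.06). The summed intensity of 10 muscle markers ran from 2634 to 2824 in MSN and from 2613 to 2830.2 in ICR mice. Of these markers 0 were called by limma, and 1 had an unadjusted p under 0.05 (10%, against 12.7% of all clusters).

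**Figure D3:**
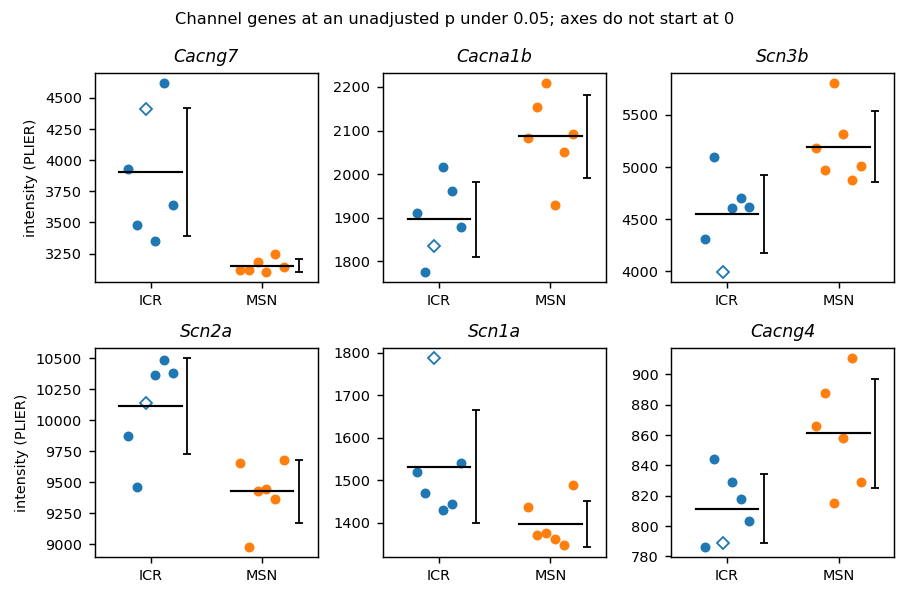
Intensity on each array (vertical axes, PLIER units, not starting at 0) of the 6 channel genes at an unadjusted p under 0.05; points are mice, the open diamond is ICR replicate 3, lines are strain means and bars show 1 SD. Cacng7 is the only one without overlap, with MSN values from 3103 to 3244 and ICR values from 3354 to 4622.

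The calcium channel beta subunits sit inside the cell and release the pore from retention. Cacnb4, whose loss causes the lethargic phenotype in mice, ran from 4434 through 4552 to 4785 in MSN and from 4270.1 through 4997 to 5721 in ICR mice. All MSN values lay within the ICR range, which was wider. The means were 4585 ± 148 and 4980.3 ± 466 (SD, n = 6 each), and the difference was -0.11 (standard error 0.0556, 95% interval -0.23 to 0.01, adjusted p = 0.415 from limma). The highest ICR value was that of ICR replicate 3, and without it the difference was -0.07. Cacnb2 ran from 197 to 218 and from 196 to 231, with a difference of -0.06 (standard error 0.0417, 95% interval -0.15 to 0.03, adjusted p = 0.596 from limma). Cacnb1 had a difference of 0.06 (-0.03 to 0.15).

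The alpha2delta subunits, of which Cacna2d1 and Cacna2d2 encode the binding sites of gabapentin, differed least. Their differences lay between -0.02 and 0.02, and all 4 intervals lay within 0.15 of 0. Cacna2d1 ran from 3175 through 3423 to 3532 in MSN and from 3286 through 3439 to 3512 in ICR mice. Its MSN arrays lay on both sides of the ICR range, 2 below it and 1 above it. Its features had differences of -0.02 and -0.04, and the sign of the first changed when each array was scaled to the same median.

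The differences of the sodium channel beta subunits were all above 0 (3 of 3 genes), beside 45.5% of all clusters. They stayed above 0 after quantile normalization and after scaling to the same median. Both scalings raised the median difference of all clusters, so these signs are no separate check. Scn3b, which modulates the gating of neuronal sodium channels, ran from 4875 through 5096 to 5807 in MSN and from 3992 through 4612 to 5095 in ICR mice. Above the ICR range lay 3 MSN arrays. The means were 5194 ± 339 and 4555 ± 373 (SD, n = 6 each), and the difference was 0.19 (standard error 0.0579, 95% interval 0.07 to 0.31). The exact permutation test gave a two-sided p = 0.00866, and the adjusted p = 0.168 from limma did not pass. The lowest ICR array, 3992, was ICR replicate 3, and without it the difference was 0.15 (adjusted p = 0.209 from limma). Scn2b, which is linked to the pore by a disulfide bond, had a difference of 0.02 (-0.06 to 0.10). Scn4b had 0.09 (-0.12 to 0.31), with ICR replicate 3 at 412 and the other ICR arrays from 267 to 339.6. Without that array the difference of Scn4b was 0.17 (-0.01 to 0.35, adjusted p = 0.399 from limma).

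The medians of pore-forming and of auxiliary genes both lay close to 0. Of the 18 pore-forming genes 7 were above 0, with a median difference of -0.029 and a range of -0.13 to 0.14. Without MSN replicate 2 the count above 0 was 3 of 18. Of the 17 auxiliary genes 7 were above 0, with a median of -0.005 and a range of -0.30 to 0.19. Between single arrays the SD was 0.0265 for the pore median and 0.0225 for the auxiliary median. These SDs are not the error of a difference between strain means, so the gap between the roles cannot be judged by them. Whether the roles differed was not tested. Each role had 3 genes at an unadjusted p under 0.05, and limma called 0 in either. The counts above 0 depended on the scaling, with 9 of 18 and 12 of 17 when each array was set to the same median, and 7 of 18 and 9 of 17 after quantile normalization. These scalings moved the median difference of all clusters from -0.008 to 0.017 and to 0.009. The 7 genes whose sign they changed were Cacna1a, Cacna1e, Cacna2d1, Cacna2d2, Cacna2d4, Cacng2 and Cacng5.

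Spread between mice was set beside that of all clusters. The median SD of their log2 values was 0.0744 in MSN and 0.109 in ICR mice, beside 0.0868 and 0.0855 for all clusters. The SD was larger in ICR mice in 20 of the 35 genes, and in 50.0% of all clusters. These SDs include ICR replicate 3 and were not computed without it. ICR replicate 3 was the highest or the lowest ICR array in 23 of the 35 genes (65.7%), 9 times the highest and 14 times the lowest, and in 40.1% of all clusters. It differed from the mean of the other ICR arrays by more than 0.1 on the log2 scale in 21 of the 35 genes. The largest gaps below were -0.47 for Cacna1h, -0.46 for Scn7a, -0.38 for Scn3a and -0.35 for Scn9a. The largest gaps above were 0.45 for Scn4b, 0.27 for Scn1a, and 0.25 for both Cacna1g and Cacnb4. The cerebellar markers were high on the same array, and the part of that signal in these gaps was not tested. MSN replicate 5 was the highest or the lowest MSN array in 21 genes (60.0%), and in 46.1% of all clusters. ICR replicate 2, which was not singled out by a marker list, was the highest or the lowest ICR array in 19 genes (54.3%), and in 38.4% of all clusters.

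**Figure D4:**
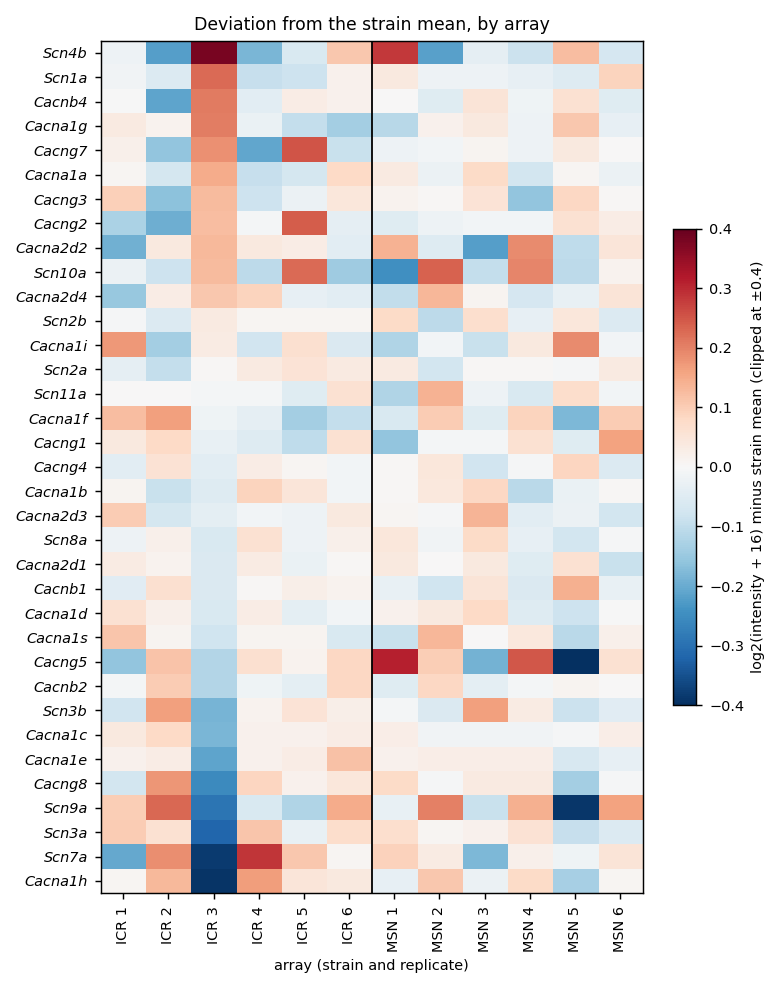
Deviation of each array (columns) from its strain mean on the log2(intensity + 16) scale for the 35 genes (rows), ordered by the value on ICR replicate 3; red is above and blue below the mean, clipped at 0.4 on either side. ICR replicate 3 is the highest or lowest ICR array in 23 of the 35 genes.

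No channel gene passed without ICR replicate 3 either. Of the 35 genes limma then called 0, and 7 reached an unadjusted p under 0.05, where 13.8% of all clusters reached that value. Cacng7, Cacna1b, Scn3b, Scn2a and Scn1a were again in this set, Scn3a and Cacna1c joined it, and Cacng4 left it. The sign changed in 6 genes, all close to 0 (Cacna1a, Cacna2d2, Cacna2d4, Cacng2, Cacng8 and Scn9a). Of the 18 pore-forming genes 7 were then above 0, and of the 17 auxiliary genes 9. The differences of Cacna1h, Scn1a, Cacna1g and Cacnb4 moved toward 0, while those of Scn4b, Scn3a and Scn7a moved away from it, to -0.11 in Scn7a.

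**Figure D5:**
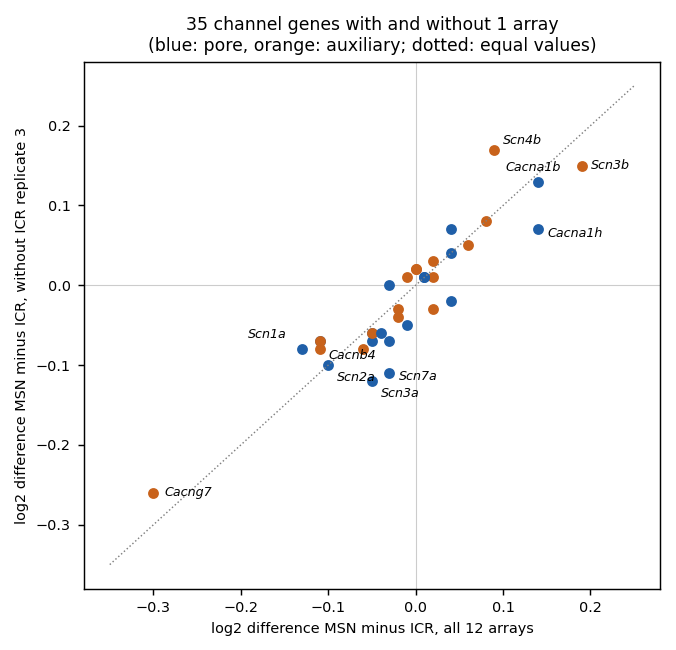
Log2 difference, MSN minus ICR, of the 35 genes over all 12 arrays (horizontal axis) and without ICR replicate 3 (vertical axis), with blue for pore-forming and orange for auxiliary genes; the dotted line marks equal values. Cacng7 stays lowest at -0.26, Scn4b moves from 0.09 to 0.17, and Cacna1h moves from 0.14 to 0.07.

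Many of these genes lie close together, Cacng7 beside Cacng8 on chromosome 7, Cacng1, Cacng4 and Cacng5 on chromosome 11, and Scn1a, Scn2a, Scn3a, Scn7a and Scn9a on chromosome 2. For the 3 genes at an unadjusted p under 0.01, the 2 nearest tested genes on either side were compared, and limma called 0 of these 12 neighbors. Beside Cacng7, Myadm had a difference of -0.07 (adjusted p = 0.511 from limma) and Cacng8 0.02. Beside Cacna1b, Ehmt1, a histone methyltransferase gene, had 0.06 (adjusted p = 0.591 from limma). Arrdc1, the next gene after it, had -0.14, opposite to Cacna1b, at an unadjusted p = 0.0163 that was the only one under 0.05 among the 12 in limma. Beside Scn3b, Zfp202 had -0.08 and Gramd1b 0.03.

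Genes of proteins that hold, modulate or follow these channels were examined next. Of 13 partners of sodium channels, 2 were above 0 and the median difference was -0.028. None was called by limma (0 of 13), and 1 reached an unadjusted p under 0.05 (7.69%, against 12.7% of all clusters). That gene, Unc80, encodes a scaffold of the sodium leak channel. It ran from 3192 through 3267 to 3367 in MSN and from 3452 through 3499 to 3705 in ICR mice, without overlap, as in 1.44% of all clusters. Its difference was -0.10 (adjusted p = 0.161 from limma). Ank3, the ankyrin that gathers sodium channels at the axon initial segment and a studied candidate gene in bipolar disorder, had a difference of -0.02 (adjusted p = 0.879 from limma).

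Of 20 partners of calcium channels with a single-gene feature 7 were above 0, and the median difference was -0.019. The count called by limma was 0, and 5 of 20 reached an unadjusted p under 0.05 (25%, against 12.7% of all clusters). Without ICR replicate 3 this count was 3, as it was without MSN replicate 5. The first was Rims1, a scaffold of the presynaptic active zone that tethers calcium channels. It ran from 2650.1 through 2708 to 2857 in MSN and from 2944 through 3098 to 3393 in ICR mice, again without overlap. Its means were 2742 ± 86.5 and 3122 ± 182 (SD, n = 6 each), and its difference was -0.19 (adjusted p = 0.0574 from limma). The others were Camk2d (-0.19) and Camk2g (-0.11), which encode subunits of a calcium-activated kinase, Akap5 (-0.11), a kinase anchor, and Stac2 (0.16), with adjusted p from 0.323 to 0.337 in limma.

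Markers of the cells that the dissection could hold were compared in the same fit. Of 8 excitatory neuron markers 7 were above 0, with a median of 0.116 and summed intensities of 30222 to 32574 in MSN and 28459 to 31351 in ICR mice. Bok rose by 0.36 (adjusted p = 0.0305 from limma). It did not pass without ICR replicate 3 (0.33, adjusted p = 0.0546 from limma), when the list's median was 0.062. Nor did it without ICR replicates 1, 5 or 6 or MSN replicates 1, 3 or 4, and over all 12 left-out arrays its adjusted p ran from 0.02 to 0.0753. Of 7 oligodendrocyte precursor markers all were above 0 (median 0.082), with sums of 6099 to 6532 and 5692 to 6201, and Pdgfra rose by 0.26 (adjusted p = 0.0184 from limma, and 0.0226 to 0.048 over the left-out arrays). limma called 0 in each of the other lists. The median was -0.022 for 8 interneuron markers, 0.064 for 6 of mature oligodendrocytes, -0.078 for 6 of astrocytes, 0.314 for 6 of choroid plexus, -0.050 for 6 of thalamus and 0.115 for 6 of endothelium and microglia. In the same order, 3, 5, 1, 6, 2 and 6 of their genes were above 0, beside 45.5% of all clusters. An unadjusted p under 0.05 was reached by 0, 2, 3, 0, 0 and 1 of them, beside 12.7% of all clusters. The 3 astrocyte genes went both ways, with Gfap at -0.30, Aqp4 at -0.23 and Aldh1l1 at 0.19. The choroid plexus sums varied widely, from 8993 to 21587 in MSN and from 7450.2 to 21440.1 in ICR mice. No listed marker had a mean below 16, which is the pseudocount and not a detection limit. The 9 cerebellar markers had a median of -0.541 and sums of 1973 to 2804 in MSN and 2305 to 21015 in ICR mice, the high end being ICR replicate 3. Without that array the median was -0.138 and the ICR sums ended at 2874. All 9 were below 0 over the 12 arrays, and limma called 0 of them, with 0 under an unadjusted p of 0.05. The 6 activity-induced genes were all above 0, with a median of 0.179 and sums of 4265 to 9825 and 3942 to 5905. Without MSN replicate 5 the median was -0.021, and 2 of 6 were above 0. Over all arrays limma again called 0, with 0 under that value. The part of these differences in the channel gene values was not tested.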

How the data were processed

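Hippocampal total RNA from 6 MSN and 6 ICR mice was labeled and hybridized to 12 Affymetrix Mouse Gene 1.0 ST arrays. The authors computed the deposited intensity values with PLIER and GC-bin background correction in Affymetrix Power Tools 1.12.0. They are linear, with 1 value per transcript cluster and array. The genome build of the annotation was not given in the sources used here.

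From these, log2(intensity + 16) was modeled on strain alone, using lmFit and eBayes of limma 3.58.1 (R 4.3.3), over the 23410 of 35556 clusters paired with a gene, with Benjamini-Hochberg adjustment over all of them. Intervals are at 95%. Single genes were also tested with an exact permutation test over all splits into 6 and 6 arrays. Its P-values were not adjusted for the number of genes. They are printed only for channel genes already picked by an unadjusted p under 0.05 in limma. The fit was tested on simulated data. A gene was represented by its single-gene cluster with the highest mean. RefSeq positions (GRCm38.p6) served for gene order, and coordinates are given for promoters alone.

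The channel genes and all gene lists were chosen with earlier results of these data known. Every channel gene could be named, and full statistics go to the 12 with the smallest P-values and the first of each subunit class. Of each marker or partner list at most 4 genes were to be named by P-value. Ank3, Camk2g and the genes of the cerebellar and activity-induced lists were named outside this rule, after their values were seen.

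Alternatives were other pseudocounts, no transformation, quantile and same-median scaling, other eBayes options, array weights, other sets of clusters, the replicate number as a block, and each array left out. The number of arrays limits the precision.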

Additional observations from a re-analysis of the deposited data

Results flagged for a closer look

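Among the 70 groups of 6 values (35 genes in 2 strains), 7 had 1 array whose gap to its nearest neighbor, as a share of the group's range, passed Dixon's 95% limit. Chance passes about 1 group in 20. ICR replicate 3 was that array in 5 of the 7. It was the lowest for Cacna1c (a share of 0.774, at 1333 with the next array at 1535), Cacna1h (0.712, 831 and 1103), Cacna1e (0.696, 2828 and 3309) and Scn3a (0.687, 353 and 437). It was the highest for Scn1a (0.662, 1789 and 1542). It passed the limit in 14.3% of the channel genes and in 2.21% of all clusters. Without it the log2 differences were -0.07 for Cacna1c, 0.07 for Cacna1h, -0.05 for Cacna1e, -0.12 for Scn3a and -0.08 for Scn1a, and limma called none of them (adjusted p from 0.204 to 0.607).

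The remaining arrays were both of MSN mice. For Cacng3, MSN replicate 4 was the lowest (0.646, 3567 and 3983), and without it the difference was -0.08 (adjusted p = 0.653 from limma). For Cacna2d3, an alpha2delta gene, MSN replicate 3 was the highest (0.641, 1870.1 and 1705), and without it the difference was -0.01 (adjusted p = 0.933 from limma).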

How the results depend on the processing

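The number of channel genes that limma called, 0, became 1 with a pseudocount of 64. It also became 1 in a new fit to only the clusters above the median mean, which hold 25 of the 35 genes. Over left-out arrays it ranged from 0 to 1. The gene was Cacng7 each time, at -0.29 and -0.30 in those settings (adjusted p = 0.0454 and 0.039 from limma). It was called without ICR replicate 2 (-0.33, adjusted p = 0.0473) and without ICR replicate 4 (-0.34, adjusted p = 0.0419). Its adjusted p from limma ranged from 0.039 to 0.134 over 12 settings and from 0.0419 to 0.143 over 12 left-out arrays. Why it passed in some of them was not tested. The number at an unadjusted p under 0.05 ranged from 5 to 9 and from 5 to 8.

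The median of the auxiliary genes, -0.005, became 0.019 with arrays scaled to the same median and ranged from -0.035 to 0.011 over left-out arrays. The median of the pore-forming genes ranged from -0.041 to -0.003 and from -0.054 to -0.011. Cacna2d1 changed sign with the same median (0.01) and without MSN replicate 6 (0.00). Deviations from the strain mean correlated at -0.126 to 0.125 between same-numbered arrays, and only replicate 5 fitted best with its own number. Pairing by replicate number was not seen in these values, and shared handling of same-numbered arrays was not tested. With the replicate number as a block 0 channel genes were called, 8 were at an unadjusted p under 0.05, and 42 of all clusters were called instead of 182. Without both ICR replicate 3 and MSN replicate 5, an alternative chosen after seeing the data, limma called 0 channel genes, Cacng7 was at -0.27 (adjusted p = 0.132), and Cacna2d1 was at -0.04.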
